A study of Mus musculus with 52 samples.

Results

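Rps4l is a single-exon copy of a ribosomal protein gene that lies on mouse chromosome 6, and the results below describe it together with the genes around it. The members were the genes of chromosome 6 whose transcription start lies within 2 Mb of that of Rps4l, which gave 68 of the 39144 genes listed in the deposited tables. The locus was chosen by the difference of Rps4l itself between Tug1-/- and wild-type (WT) tissues, so the Rps4l values in those comparisons are a description and were not tested. The neighbours entered by position alone. Of the 68 members, 28 were protein-coding genes, 11 were processed pseudogenes, 11 were loci that await experimental evidence (TEC in the annotation), 10 were lincRNAs, 6 were antisense RNAs, 1 was a snoRNA and 1, Rps4l, was a transcribed processed pseudogene.

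Polyadenylated RNA was sequenced from male mice that lack Tug1, a long noncoding RNA gene on chromosome 11, and in which lacZ replaced the gene body and the promoter was kept. Heart, liver, spleen, eyes and embryonic fibroblasts (MEFs) were each sequenced in 3 WT and 3 Tug1-/- samples, prostate in 3 WT and 2 Tug1-/- samples, and testes in 4 WT, 4 Tug1-/- and 3 rescue samples. The rescue mice carried the Tug1-/- alleles, a doxycycline-inducible Tug1 transgene, tg(Tug1), and the CAGs-rtTA3 driver that switches it on, and were kept on doxycycline food from the plug date of their mothers. Whether the WT and Tug1-/- testes donors had the same diet is not stated in the sources used here, so the transgene and doxycycline cannot be told apart in the rescue comparisons. For the tissues other than testes, the labels gave both genotypes the same background, C57BL/6J/129S6 at the N3-C57BL/6J backcross with no Neo cassette. That background is a mixture of strains, and which strain's sequence each sample carried at the Rps4l locus was not examined here, so a strain difference at the locus and the Tug1 genotype cannot be told apart from these means. In testes the labels gave C57BL/6J, with no Neo in WT and with Neo and LacZ in Tug1-/- and rescue, while the methods of the study describe a colony selected for loss of the neomycin cassette. Which of these holds for the testes samples was not examined here, and if the labels hold, Tug1 genotype and the cassette cannot be told apart there. Brain values came from libraries outside the samples described here, whose background was not given in the labels used here, and ages were not given in the labels used here. The tables hold 1 mean for each group in TPM, an expression level scaled for transcript length and library size, and no values of single samples. The authors' own standard errors and p-values were not used here, so no spread between replicates is given and no difference was tested. Each comparison is therefore a comparison of 2 means. Log2 ratios were taken after 0.1 TPM was added to each mean, ratios not marked as log2 are plain ratios of the means, and a gene is called past 1.5-fold only where the mean of the 2 group means was at least 1 TPM.

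Tug1 was checked first, since it is the targeted gene. In the tissues other than testes its mean ranged from 10.1 to 57.5 TPM in WT, with liver lowest and eyes highest, and was at most 0.237 TPM in Tug1-/-. In testes Tug1 stood at 40.1 TPM in WT, 0.885 TPM in Tug1-/- and 1.60 TPM in rescue. All 32 tissue markers (4 for each of the 8 tissues, such as Alb for liver and Prm1 for testes) were at 1 TPM or more in both genotypes of their own tissue. Of the marker lists of other tissues and cells that summed to at least 10 TPM over the mean of both genotypes, those past 1.5-fold between Tug1-/- and WT were 0 of 5 in brain, 0 of 4 in liver, 0 of 2 in MEFs, 1 of 5 in heart, 3 of 8 in eyes, 2 of 7 in prostate, 4 of 8 in spleen and 2 of 7 in testes. In spleen the summed level of 4 pancreatic enzyme genes was 68.8 TPM in WT and 5108 TPM in Tug1-/-, that of 4 red cell genes was 19737 and 35593 TPM, that of the prostate list was 0.141 and 69.1 TPM and that of the liver list was 21.9 and 0.670 TPM. In prostate the sum of 4 seminal vesicle secretory genes was 19917 TPM in WT and 59329 TPM in Tug1-/-, and that of the red cell genes was 141 and 257 TPM. Eyes had red cell sums of 590 and 1817 TPM, skeletal muscle sums of 3977 and 7107 TPM and heart muscle sums of 247 and 451 TPM. Heart had sums of the spleen (B cell) list of 40.1 and 18.4 TPM. In testes the epididymis list summed to 1842 TPM in WT and 801 TPM in Tug1-/-, and the skeletal muscle list to 4.08 and 33.1 TPM. The part of these other tissues and cells in the results was not tested.

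The ribosomal protein S4 is a component of the small (40S) ribosomal subunit that binds ribosomal RNA early in subunit assembly. In the mouse it is encoded by the X-linked gene Rps4x. Processed copies of genes arise when an mRNA is reverse transcribed and inserted elsewhere in the genome, and they carry no introns. X-linked genes are silenced in male germ cells during meiosis, and a number of X-linked housekeeping genes have autosomal copies that are transcribed in the testis.

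Rps4l (ENSMUSG00000063171) is at chr6:148354656-148355598 on the plus strand of GRCm38. In the GENCODE vM21 annotation of the same build it lies wholly within an intron of Tmtc1, which is transcribed from the opposite strand, and none of its 943 exonic bases overlap a Tmtc1 exon. Its transcript matched that of Rps4x over 814 aligned positions with 79.7% identity. Although it is annotated as a pseudogene, its transcript holds an open reading frame of 262 codons, against 263 codons for Rps4x. Another pseudogene, Rps4l-ps on chromosome 7, matched it with 93.3% identity over 789 positions and has an open reading frame of 255 codons. The sequences of 120 bases from inside the 3 reading frames are shown because they bear on whether reads of the copies can be told apart. They are from the GENCODE vM21 transcripts, 5′ to 3′. Capitals in Rps4l mark the bases at which Rps4x differs, and capitals in the other sequences mark the bases at which they differ from Rps4l.
Rps4l: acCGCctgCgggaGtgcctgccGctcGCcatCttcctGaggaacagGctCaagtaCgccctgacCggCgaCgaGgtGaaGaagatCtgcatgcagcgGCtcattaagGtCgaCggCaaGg
Rps4x: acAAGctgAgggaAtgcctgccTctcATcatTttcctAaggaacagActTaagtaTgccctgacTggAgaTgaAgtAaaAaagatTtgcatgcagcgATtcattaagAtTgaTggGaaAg
Rps4l-ps: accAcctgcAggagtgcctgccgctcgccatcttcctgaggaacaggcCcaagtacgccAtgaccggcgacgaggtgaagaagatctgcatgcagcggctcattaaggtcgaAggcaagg
In this stretch Rps4x differed from Rps4l at 27 bases and Rps4l-ps differed at 5 bases. Of the 844 stretches of 100 bases in Rps4l transcripts, 14 (1.66%) occurred without a mismatch in the transcripts of another gene, and that gene was Rps4l-ps in every case. Rps4l-ps itself was listed in MEFs, at 0.0619 TPM in WT and 0.316 TPM in Tug1-/-, and in prostate, at 0 and 0.185 TPM. Those levels are far below the levels of Rps4l that follow.

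Rps4l was higher in Tug1-/- than in WT in all 8 tissues, and past 1.5-fold in the 7 tissues other than testes. The mean of Rps4l was 23.6 TPM in WT prostate and 319 TPM in Tug1-/- prostate, a ratio of 13.5, and 15.2 and 187 TPM in spleen, a ratio of 12.3. Liver had 21.4 TPM in WT and 108 TPM in Tug1-/-, a ratio of 5.06, and heart had 26.1 and 122 TPM, a ratio of 4.67. The 3 remaining tissues had the highest WT levels among these 7 and the smallest ratios. Brain had 47.6 TPM in WT and 121 TPM in Tug1-/- (ratio 2.54), MEFs had 123 and 294 TPM (2.39), and eyes had 85.7 and 182 TPM (2.13). Across the 7 tissues the WT means spanned 8.05-fold and the Tug1-/- means spanned 2.94-fold, from 108 TPM in liver to 319 TPM in prostate. The tissues thus lay closer together in Tug1-/- than in WT. The authors' mean normalised count behind these values, over both genotypes, was between 268 in brain and 2024 in MEFs. Marker lists of other tissues were past 1.5-fold in prostate, spleen, eyes and heart, as given above, and in brain, liver and MEFs none was. In liver the macrophage list (ratio 1.475) and the MEF list (1.428) lay just under it, and MEFs had only 2 lists at that level.

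Testes stood apart. Rps4l had its highest WT level there, 183 TPM, and stood at 208 TPM in Tug1-/- and 234 TPM in rescue. The log2 ratio was 0.19 for Tug1-/- over WT, 0.17 for rescue over Tug1-/- and 0.35 for rescue over WT, none of them past 1.5-fold. These 3 comparisons share their libraries. The rescue mean therefore lay further from WT than the Tug1-/- mean did. Whether these means differ beyond the spread between mice cannot be said from group means, and the authors' own standard errors and p-values were not used here. Because the testes samples also had another background label than heart, liver, spleen, eyes, prostate and MEFs, tissue and background cannot be told apart in the contrast between testes and these.

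**Figure D1:**
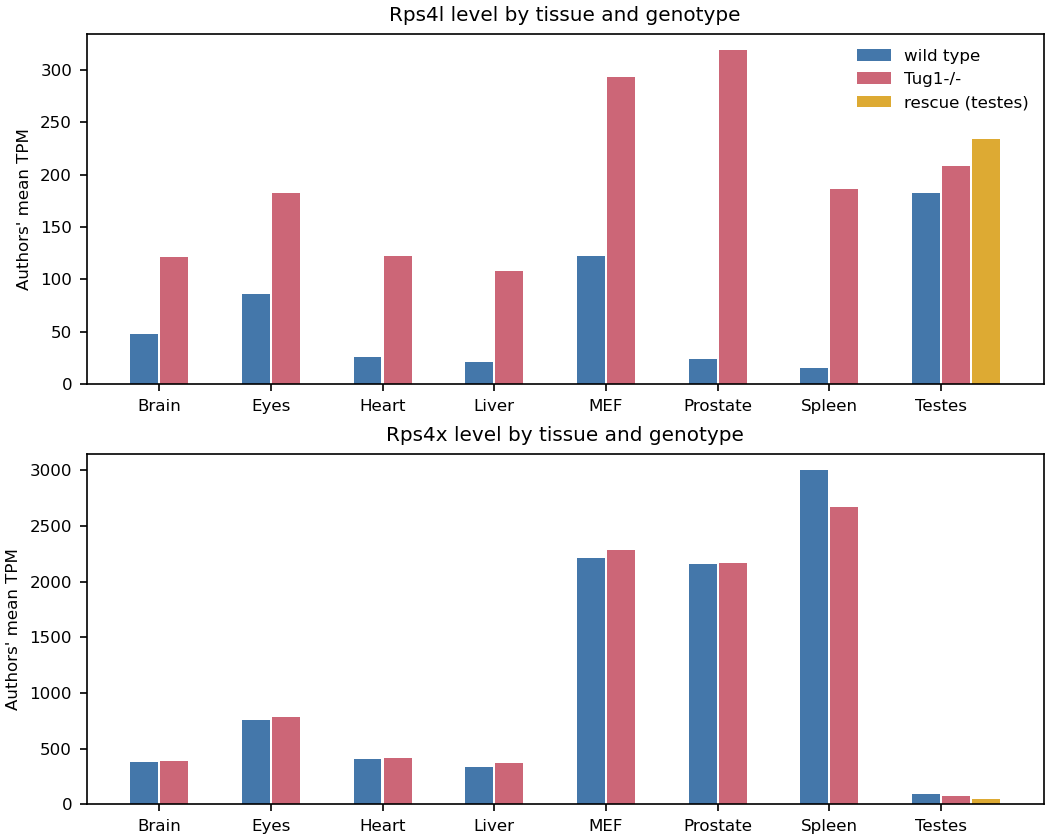
Bars show the authors' mean TPM of Rps4l (top) and Rps4x (bottom) in WT, Tug1-/- and, for testes, rescue samples, on linear axes that start at 0; no error bars are drawn because the tables hold 1 mean per group. The Tug1-/- bar of Rps4l is above the WT bar in all 8 tissues, with 23.6 against 319 TPM in prostate and 183 against 208 TPM in testes, while the paired bars of Rps4x are of similar height outside testes.

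Rps4x, the parent-type gene, did not share this pattern. Its log2 ratio for Tug1-/- over WT was between -0.17 in spleen and 0.15 in liver in the 7 tissues other than testes. In testes Rps4x was at 89.2 TPM in WT, 73.5 TPM in Tug1-/- and 48.3 TPM in rescue, with a log2 ratio of -0.88 for rescue over WT. It was the 1 gene past 1.5-fold among 32 small-subunit ribosomal protein genes in the comparisons of rescue with WT and with Tug1-/-. None of the 32 was past 1.5-fold in either direction in any of the 8 tissues, where the list's median log2 ratio lay between -0.18 in spleen and 0.13 in liver. Of all genes tested, 3.49% in heart to 9.36% in spleen were past it. For rescue the share of all genes was 6.60% over WT and 3.60% over Tug1-/-. The list includes Rps4x but not Rps4l.

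Rps4l accounted for 0.506% of the summed TPM of Rps4l and Rps4x in WT spleen and 6.54% in Tug1-/- spleen. In prostate the share was 1.08% in WT and 12.8% in Tug1-/-. Heart had shares of 6.01% and 22.8%, liver 6.04% and 22.6%, and brain 11.3% and 24.0%. In eyes the share was 10.1% in WT and 18.9% in Tug1-/-, and in MEFs it was 5.25% and 11.4%. Rps4x thus remained the larger contributor in both genotypes of these 7 tissues. In testes the order was the other way round, with Rps4l at 67.2% of the sum in WT, 73.9% in Tug1-/- and 82.9% in rescue. The summed level in testes was 272, 282 and 282 TPM in those groups.

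Among the 9587 genes at 1 TPM or more in all 8 tissues, 4 were higher past 1.5-fold in Tug1-/- in at least 7 tissues. The limit of 7 was the count of Rps4l itself, so Rps4l was sure to be among them. Since Rps4l was chosen by this same difference, its place here and in the ranks below is a description and not a test. With no level required in every tissue, 5 genes of the whole series met the same count. Rnf185, which encodes a RING-type ubiquitin ligase, was higher in 8 tissues, and 8430429K09Rik, Selenom, Cd59b and Rps4l were higher in 7. Rnf185, 8430429K09Rik and Selenom are on chromosome 11, as Tug1 is, and Cd59b is on chromosome 2. Ranked by ratio, Rps4l was the 3rd of 13701 genes tested in heart, the 8th of 11849 in liver, the 39th in brain and in spleen, the 41st in prostate, the 86th in MEFs and the 103rd in eyes. In testes it was the 3282nd of 21813.

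Of the neighbours of Rps4l, no coding member was past 1.5-fold in more than 1 of the 8 tissues, while the pseudogenes Gm15763, in eyes and heart, and Gm15720, in brain, had log2 ratios below 0 and larger in size than that of Rps4l, on the low counts given with them. The number of members past 1.5-fold, Rps4l included, was 3 of 31 in brain, where 4.72% of all genes tested were past it, 3 of 33 in eyes (6.66% of all genes), 3 of 22 in heart (3.49%) and 1 of 17 in liver (5.22%). It was 2 of 26 in MEFs (6.43%), 2 of 25 in prostate (6.72%), 1 of 26 in spleen (9.36%) and 0 of 39 in testes (5.24%). For rescue it was 1 of 40 over Tug1-/- (3.60%) and 2 of 41 over WT (6.60%). In liver and spleen the member past it was Rps4l, and in the other 5 tissues with a count above 0 Rps4l was 1 of the 2 or 3. In all, 8 of the 68 members were past 1.5-fold in any of the 10 comparisons, 43 were measured at 1 TPM or more without being past it, and 17 were never at 1 TPM or more. The 8, among them Rps4l, for which the locus was chosen, were 15.7% of the 51 members measured in any comparison. Of the 29413 genes so measured, 22.3% were past it. The median log2 ratio over the measured members had the same sign as that over all genes in the 10 comparisons. In heart it was 0.20 against 0.10 for all genes, in eyes -0.05 against -0.11, and in spleen -0.06 against -0.11.

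**Figure D2:**
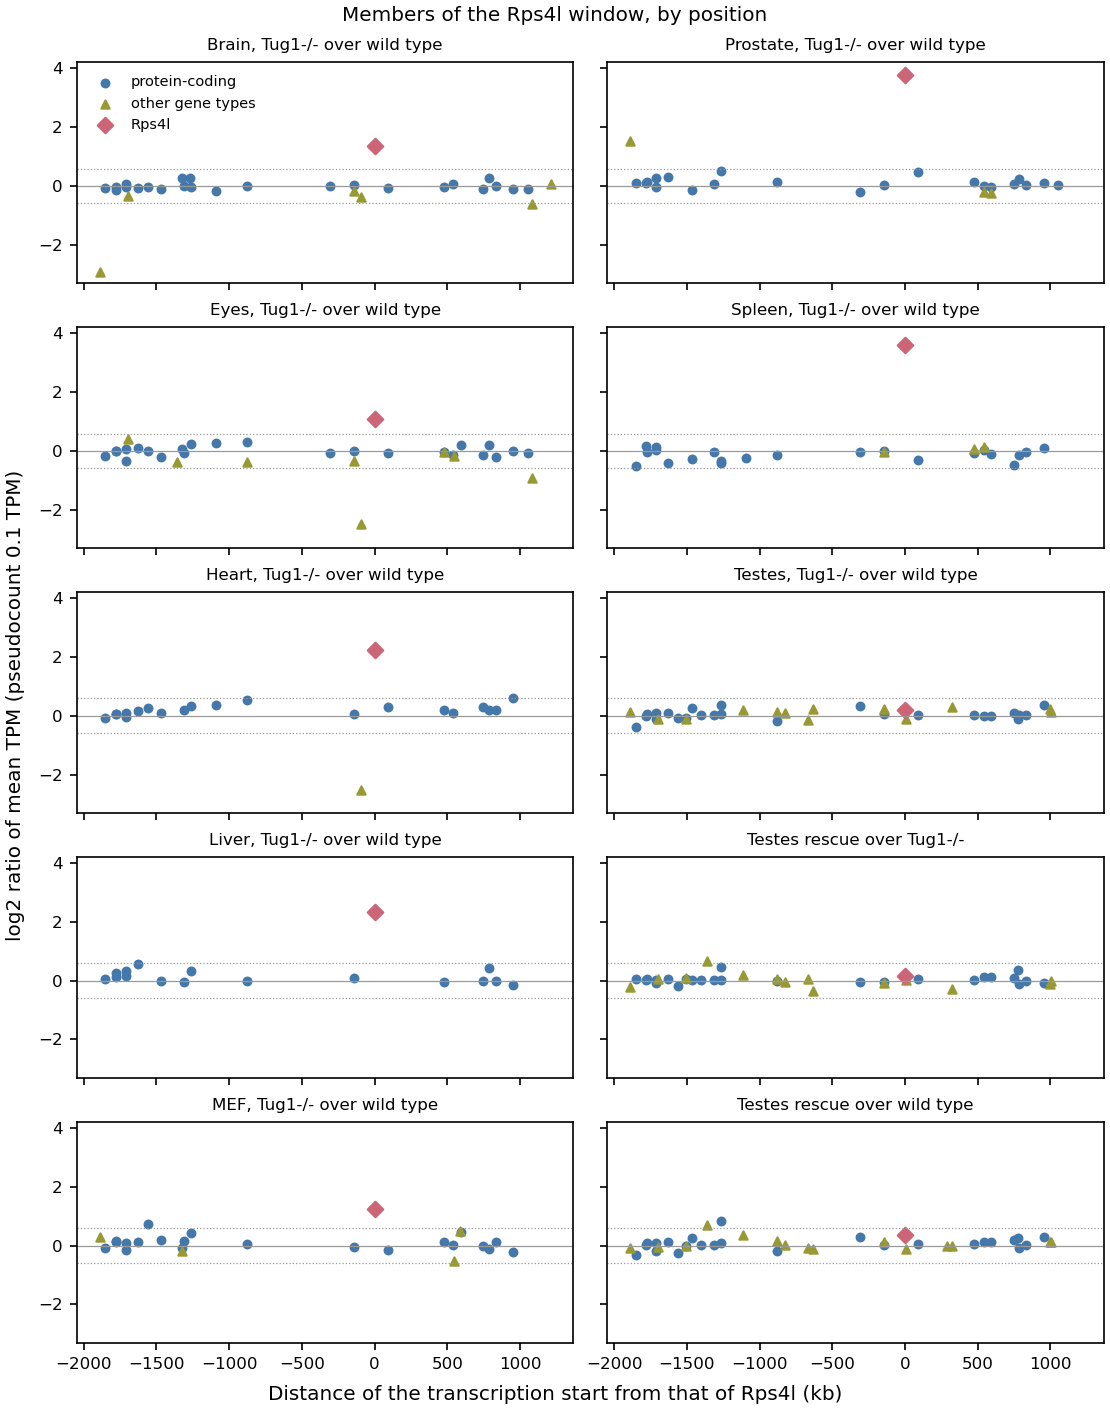
Each panel is 1 comparison, and each point is 1 member with a mean of at least 1 TPM, placed by the distance of its transcription start from that of Rps4l (kb) and by the log2 ratio of mean TPM; dotted lines mark 1.5-fold. Rps4l, the diamond at 0 kb, is above the dotted line in the 7 tissues other than testes, reaching 3.75 in prostate, while the protein-coding members lie between -0.52 and 0.72 in the 8 tissues.

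The gene that surrounds Rps4l is Tmtc1, which encodes a membrane protein of the endoplasmic reticulum that transfers mannose to cadherins. Its start lies 89.7 kb from that of Rps4l. Tmtc1 had 4.89 TPM in WT prostate and 6.74 TPM in Tug1-/- prostate, a log2 ratio of 0.45, but 9.12 and 7.39 TPM in spleen, a log2 ratio of -0.30. The other values for Tug1-/- over WT were 0.28 in heart, -0.06 in brain, -0.07 in eyes, -0.16 in MEFs and 0.01 in testes, and in liver Tmtc1 was under 1 TPM in both groups. Tmtc1 was thus on opposite sides of 0 in prostate and spleen, where Rps4l had its highest ratios. Ergic2, 142.3 kb away on the other side, encodes a protein that cycles between the endoplasmic reticulum and the Golgi. Its log2 ratio was between -0.06 in MEFs and 0.09 in liver, the narrowest range of the coding members within 500 kb. Far2, a fatty acyl-CoA reductase that makes fatty alcohols, had a log2 ratio of 0.34 in testes and lay between -0.21 and -0.01 in the 4 other tissues in which it was measured. Ipo8, an importin that carries proteins into the nucleus, had its largest value in heart, at 0.21. Far2 and Ergic2 share 837 exonic bases on opposite strands in the vM21 annotation, so their values may not be wholly separate. These 4 coding genes have their starts within 500 kb of Rps4l. They gave 28 pairs of gene and tissue at 1 TPM or more, of which none was past 1.5-fold and 85.7% were within 1.2-fold. Of the nearest noncoding members measured in Tug1-/- over WT, Gm15763 is described with the pseudogenes, and the others had low levels and were not past 1.5-fold. Gm44021, 10.0 kb from Rps4l in an intron of Tmtc1, was at 1 TPM or more in testes alone, at 2.30 TPM in WT, 2.11 TPM in Tug1-/- and 2.12 TPM in rescue. 4930528G23Rik, a lincRNA at 323.3 kb, was listed in testes alone, at 1.02, 1.27 and 1.01 TPM in the same order. 4732416N19Rik, at 142.4 kb on the side of Ergic2, lay between -0.36 in eyes and 0.22 in testes on the log2 scale in the 4 tissues in which it was measured.

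Over the whole window, the 28 coding members gave 173 such pairs, of which 2 (1.16%) were past 1.5-fold, against 3.98% of the 104779 pairs of all coding genes. Within 1.2-fold were 81.5% of the pairs of members and 82.2% of the pairs of all coding genes. The 2 were Arntl2 and 2810474O19Rik. Arntl2, a basic helix-loop-helix partner of the clock protein CLOCK, had 4.43 TPM in WT MEFs and 7.35 TPM in Tug1-/- MEFs, a log2 ratio of 0.72. It lay between -0.08 and 0.26 in brain, eyes, heart and testes. In the tissues where its mean was under 1 TPM, Arntl2 had log2 ratios of -1.16 in spleen, 0.75 in liver and 0.56 in prostate. 2810474O19Rik, also named Resf1, encodes a regulator of retroelement silencing. It had 5.93 TPM in WT heart and 9.02 TPM in Tug1-/- heart, a log2 ratio of 0.60 that was just past 1.5-fold, and 6.19 and 8.02 TPM in testes, a log2 ratio of 0.37. In the other 6 tissues it lay between -0.21 in MEFs and 0.11.

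The remaining coding members can be read by their roles. Med21, a subunit of the Mediator complex that links transcription factors to RNA polymerase, was the 1 member besides Rps4l that was higher in Tug1-/- in all 8 tissues, by a log2 ratio of 0.03 in spleen to 0.32 in liver. After centring on the median of all genes it was higher in 7 of the 8, with -0.03 in heart. Its exons share 197 bases with those of Tm7sf3 and 348 bases with those of Gm6654, both on the opposite strand, where reads cannot be told apart without strand. Ints13, a subunit of the Integrator complex that processes small nuclear RNA, lay between -0.14 in brain and 0.26 in liver. Fam60a, a subunit of SIN3-HDAC corepressor complexes, had 11.5 TPM in WT MEFs and 15.9 TPM in Tug1-/- MEFs, a log2 ratio of 0.46.

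Of the signalling members, Itpr2 is a calcium channel of the endoplasmic reticulum opened by inositol trisphosphate, and its spleen means of 35.1 TPM in WT and 24.4 TPM in Tug1-/- gave the lowest log2 ratio of any coding member in the 8 tissues, -0.52. Stk38l, a kinase of the NDR family, had 9.28 TPM in WT liver and 13.8 TPM in Tug1-/- liver, a log2 ratio of 0.57, and -0.43 in spleen. Pthlh, the gene of parathyroid hormone-related protein, was measured in 4 tissues and lay between -0.24 in spleen and 0.37 in heart. Klhl42, an adaptor for Cul3 ubiquitin ligases, was higher in Tug1-/- in 6 tissues, up to 0.50 in prostate, and lower by a log2 ratio of -0.34 in spleen.

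Of the members in membrane traffic and transport, Ccdc91, a binding partner of GGA adaptors at the Golgi, had the highest level of any member, 514 TPM in WT testes against 456 TPM in Tug1-/- testes. In heart Ccdc91 was at 18.1 TPM in WT and 26.2 TPM in Tug1-/-, a log2 ratio of 0.54. Dennd5b, a regulator of Rab GTPases, lay between -0.48 in spleen and 0.30 in heart. Bicd1, an adaptor of the dynein motor, was measured in 3 tissues and lay between -0.12 and 0.03. Tm7sf3, a membrane protein, was the member with the highest WT level in eyes and in liver, at 94.9 and 54.3 TPM, and stood at 74.8 and 60.9 TPM in Tug1-/-, log2 ratios of -0.34 and 0.17. In metabolism, Mrps35 of the mitochondrial ribosome lay between -0.06 and 0.19, and Etfbkmt, a methyltransferase of the electron transfer flavoprotein, had its highest ratio in liver, where it was at 43.3 TPM in WT and 58.8 TPM in Tug1-/- (0.44). Spleen was a tissue in which several of these members were lower, with Itpr2, Dennd5b, Stk38l and Mansc4 at -0.40 or below. In spleen the median over the 22 coding members was -0.09 and the median over all coding genes was -0.10.

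**Figure D3:**
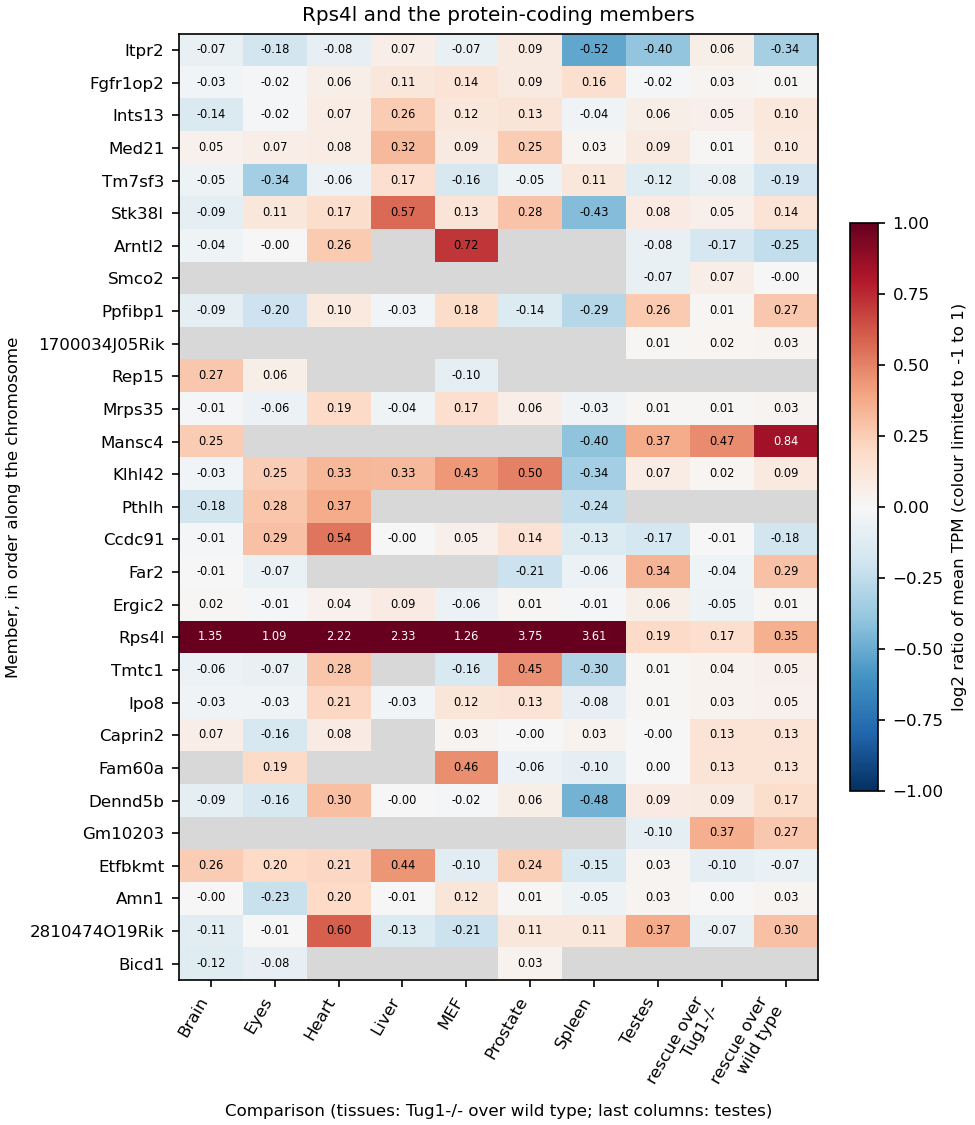
Log2 ratio of mean TPM for Rps4l and the coding members, in order along the chromosome (rows), in the 10 comparisons (columns); grey cells had a mean under 1 TPM or were not listed, and colour is limited to -1 to 1. Rps4l is the 1 row past 1.5-fold in 7 columns, the coding members past it are Arntl2 in MEFs (0.72), 2810474O19Rik in heart (0.60) and Mansc4 in rescue over WT (0.84).

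In testes, 25 of the 68 members had their highest WT level of any tissue, with no lower limit on that level. More members were listed in testes, 64, than in the other tissues, with 41 in liver to 53 in eyes. The share over all genes was not computed, so the count is not read as a trait of the locus. Besides Rps4l and Ccdc91, the 25 included Smco2 at 188 TPM, 1700034J05Rik at 265 TPM, Fgfr1op2 at 124 TPM and the lincRNA 4930479D17Rik at 41.2 TPM. Smco2 had 178 TPM in Tug1-/- and 187 TPM in rescue, and 1700034J05Rik had 267 and 271 TPM. None of the 25 coding members measured in testes was past 1.5-fold in Tug1-/- over WT, against 4.78% of all coding genes. Their log2 ratios lay between -0.40 for Itpr2 and 0.37 for 2810474O19Rik. Against Tug1-/-, the rescue means of the coding members lay between -0.17 and 0.47. Mansc4 was the coding member past 1.5-fold in rescue over WT, where 5.91% of all coding genes were past it. Its mean was 0.921 TPM in WT, 1.22 TPM in Tug1-/- and 1.73 TPM in rescue. The antisense RNA Gm44085 was at 0.906, 0.923 and 1.53 TPM in the same order. Of its 372 exonic bases, 114 lie on a Ppfibp1 exon of the opposite strand, and since no source used here states that the counting used strand, reads on that shared stretch cannot be told apart. Ppfibp1, a liprin of cell adhesion sites, stood at 15.2, 18.3 and 18.4 TPM in the same groups.

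The other members past 1.5-fold were processed pseudogenes with few reads. Each is shown with the coding gene its transcript matched best, since multi-mapped reads were not counted and a copy that differs at few bases can be read apart only where the bases differ. The sequences are the first 120 bases of the pseudogenes' GENCODE vM21 transcripts and the matching bases of the coding sequence, 5′ to 3′, with the differing bases in capitals.
Gm15763: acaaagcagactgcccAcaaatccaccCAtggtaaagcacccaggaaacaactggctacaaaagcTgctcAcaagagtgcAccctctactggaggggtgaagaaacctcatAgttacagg
H3f3a: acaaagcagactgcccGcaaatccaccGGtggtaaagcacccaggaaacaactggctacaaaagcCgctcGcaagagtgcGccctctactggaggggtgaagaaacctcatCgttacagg
Gm15720: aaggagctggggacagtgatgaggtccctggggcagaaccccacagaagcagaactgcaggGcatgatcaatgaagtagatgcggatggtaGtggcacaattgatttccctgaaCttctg
Calm2: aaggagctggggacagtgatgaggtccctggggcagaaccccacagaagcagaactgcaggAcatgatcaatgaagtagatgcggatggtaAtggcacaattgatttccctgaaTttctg
Gm15785: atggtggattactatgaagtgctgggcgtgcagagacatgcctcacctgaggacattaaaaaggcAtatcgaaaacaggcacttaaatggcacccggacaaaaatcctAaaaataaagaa
Dnajb6: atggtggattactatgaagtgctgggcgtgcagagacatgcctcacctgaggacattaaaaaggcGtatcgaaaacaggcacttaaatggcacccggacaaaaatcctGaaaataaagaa
The printed stretches differed at 7 bases, 3 bases and 2 bases in that order. Over the whole alignments the identity was 92.1% for Gm15763 and H3f3a, which encodes histone H3.3, 97.5% for Gm15720 and Calm2, a calmodulin gene, and 93.0% for Gm15785 and Dnajb6, a heat shock co-chaperone.

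Gm15763 lies within an intron of Tmtc1, 93.5 kb from Rps4l, and was the nearest measured member on that side. Its mean was 4.79 TPM in WT eyes and 0.778 TPM in Tug1-/- eyes, and 2.13 and 0.286 TPM in heart, with log2 ratios of -2.48 and -2.53. In brain it was at 1.91 and 1.43 TPM, and in spleen, where it was under 1 TPM, at 0.543 and 0.0718 TPM. Gm15763 was not listed in liver, MEFs or prostate, and was past 1.5-fold in eyes and heart alone. The authors' mean normalised count behind it was 15.0 in eyes, 10.1 in heart, 3.30 in brain and 1.77 in spleen. H3f3a had a log2 ratio of -0.16 in eyes and -0.02 in heart.

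Gm15720 lies within an intron of Itpr2 at the edge of the window and went both ways. It was at 3.35 TPM in WT brain and 0.350 TPM in Tug1-/- brain, and at 0.543 and 1.74 TPM in prostate. The authors' mean normalised count was 3.49 in brain and 3.66 in prostate, so that each ratio rests on a handful of reads. Calm2 was at 3991 and 4049 TPM in brain. Gm15785, in an intron of Bicd1, was at 1.38 and 0.867 TPM in brain and at 1.37 and 0.671 TPM in eyes, on mean normalised counts of 4.0 and 9.6. Gm7618, a pseudogene with 98.2% identity to Rps29, was not past 1.5-fold, with its lowest log2 ratio among measured tissues in MEFs (-0.53, from 3.59 to 2.46 TPM). Over all members that do not code for protein, other than Rps4l, 6 of 38 pairs of gene and tissue (15.8%) were past 1.5-fold, against 14.5% of the 25393 pairs of all such genes.

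The edges of the window were set by distance. The 2 members nearest its inner edge were Gm15720 and Itpr2, with starts 1891.0 and 1852.4 kb from Rps4l, and the listed genes just outside it, Gm44086 and Gm32914 at 2083.7 and 2352.9 kb, never reached a mean of 1 TPM. On the other side the last members, Gm21814 and Gm44043, start 1211.4 and 1215.8 kb from Rps4l, and 0 genes listed on chromosome 6 lie beyond them.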

How the data were processed

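Libraries were polyadenylated RNA made into TruSeq RNA v2 libraries. Per the paper's methods, the authors aligned paired-end reads to GRCm38 with STAR, counted uniquely mapped reads over GENCODE vM16 genes with featureCounts, removed genes under 3 reads in every replicate, and deposited the mean TPM of each group. The versions of STAR, featureCounts and DESeq2 and the strand setting are not given in the sources used here. The tables also hold a normalised mean count over all libraries of a tissue (baseMean), printed here as depth for the tissues other than testes, and the authors' own DESeq2 fold changes, standard errors and p-values, which were not used. Because the tables hold no per-sample values, the depth per sample is unknown and no test was run. Values are ratios of the authors' means, on the log2(TPM + 0.1) scale, which understates ratios of low genes. Of 52 samples, 46 stand behind the tables and 6 hybrid testes samples were not used.

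The members, lists and named genes were chosen with earlier results of these data known. Named were Rps4l, members past 1.5-fold in at least 2 of 10 comparisons, and the 2 largest ratios of each comparison. So were the highest members of each tissue, coding members by role, and the nearest 3 members on each side. The nearest members had to be measured in Tug1-/- over WT in a tissue, which left out Gm23456, measured in rescue over WT alone. Sequences came from GENCODE vM21 transcripts. Pseudogenes were matched to coding transcripts with blastn 2.17.0 (E-value limit 1e-20). Ratios were computed with pandas and numpy and checked on simulated data.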

Additional observations from a re-analysis of the deposited data

How the results depend on the processing

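The Rps4l ratios kept their direction and their side of 1.5-fold in all 10 comparisons with no pseudocount, with 1 TPM added and after centring on the median of all genes. Centring gave log2 ratios of 1.19 in eyes, 2.12 in heart and 3.72 in spleen. The counts of members past 1.5-fold depended on the level filter and the fold. A count is given where it moved by more than 1.5 times, and the smaller moves, of 1 member in brain, eyes or heart, are given last. Values run from brain, eyes, heart, liver, MEFs, prostate, spleen and testes to rescue over Tug1-/- and rescue over WT. With no filter the counts became 10, 7, 4, 9, 5, 6, 10, 3, 7 and 8, and with a lower limit (log2 ratio 0.32) they became 5, 8, 6, 5, 6, 4, 6, 4, 4 and 5. The share of all genes past the fold, in the same order, was 12.6%, 12.7%, 8.75%, 10.1%, 12.7%, 13.5%, 15.3%, 9.90%, 9.58% and 12.5% with no filter, and 11.0%, 19.9%, 11.2%, 16.3%, 19.6%, 17.0%, 25.6%, 13.0%, 10.3% and 16.1% at the lower limit. With at least 5 TPM, the count became 1 in brain, eyes and prostate (1.10%, 3.82% and 2.93% of all genes) and 0 in both rescue comparisons (1.11% over Tug1-/- and 3.10% over WT). With a fold of 2 it became 1 in MEFs (1.79% of all genes) and 0 in both rescue comparisons (1.38% and 2.89%). Within 1 Mb of Rps4l it became 1 of 13 in brain, 1 of 13 in MEFs, 1 of 14 in prostate, and 0 of 21 and 0 of 22 in the rescue comparisons, with the share of all genes as in the report. With coding genes and Rps4l alone it became 1 of 25 in brain, 1 of 25 in eyes, 1 of 22 in prostate, 1 of 26 in rescue over WT and 0 of 26 in rescue over Tug1-/-, where 1.26%, 4.06%, 4.37%, 5.91% and 2.23% of all coding genes were past 1.5-fold. With 1 TPM added it became 0 in both rescue comparisons (1.90% and 4.16%). Without Rps4l it became 0 of 16 in liver, 0 of 25 in spleen, 1 of 25 in MEFs and 1 of 24 in prostate, again with the share of all genes as in the report. The count went from 3 to 2 in brain, eyes and heart with 1 TPM added (2.73%, 4.01% and 1.98% of all genes), with a fold of 2 (1.98%, 1.55% and 1.07%) and without Rps4l (of 30, 32 and 21 members). It did so in brain and heart after centring (4.70% and 3.54%), in eyes within 1 Mb (of 17 members), and in heart with at least 5 TPM (1.66%) and with coding genes and Rps4l alone (of 21 members, 2.13% of coding genes). Of 759 values of the other named and all coding members under the 3 scalings, 657 stayed on their side of 1.5-fold within 0.1 of the main log2 ratio and none that was past it changed sign. After centring, 46 values, all under 1.5-fold, changed sign. 2810474O19Rik in heart dropped below 1.5-fold with 1 TPM added (0.53) and after centring (0.49). Gm15785 in brain did so with 1 TPM added (-0.35) and after centring (-0.58). With 1 TPM added, so did Gm15785 in eyes (-0.51), Gm44085 in both rescue comparisons (0.39 and 0.41) and Mansc4 in rescue over WT (0.51). No paired analysis was possible because the tables hold only group means, and leaving out single replicates was not possible for the same reason.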
